A study of Homo sapiens with 26 samples.

Results

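The nuclear genome encodes every subunit of respiratory complex III but cytochrome b, and the 9 such genes chosen here by name are UQCRC1, UQCRC2, CYC1, UQCRFS1, UQCRB, UQCRH, UQCRQ, UQCR10 and UQCR11, out of 60663 genes in the RNA-seq tables. Ribosome profiling was performed in HEK293T cells, an established human line of embryonic kidney origin, with an Avi tag on endogenous RPL29, which belongs to the large ribosomal subunit. Stable polyclonal lines expressed LOV-BirA, a biotin ligase switched on by blue light, either fused to Sec61β at the ER (SFFV promoter), fused to the OMP25 transmembrane domain (OMP25-TMD) at the OMM (EF1α promoter), or free in the cytosol. Each location had 2 replicates with cycloheximide (CHX), and each lysate gave a total input and a streptavidin pulldown, so that 12 footprint libraries were used. Intact mRNA pulldown followed by RNA-seq was performed with OMP25-TMD-LOV-BirA. Wild-type cells carrying a negative control gRNA and lines null for AKAP1 or for LARP4 had 2 replicates each. Cells without CHX had 1 replicate and a shorter light induction, which makes 14 libraries. The labels name no genotype or gRNA for the cells without CHX. Each null genotype is 1 monoclonal line, so that clone and genotype cannot be told apart, and all lines with replicates were taken to have been treated with CHX as in the general protocol. Whether samples of 1 group came from separate cultures is not given by the labels, and p-values then measure only the spread between these lysates.

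Deposited coding counts summed to between 1025114 (OMM pulldown, replicate 1) and 19539527 (ER pulldown, replicate 1) per footprint library, and RNA-seq counts to between 38347615 and 100840544. The HEK293T-expressed genes VIM and LIN28B had median total input levels of 96.3 and 33.4 FPKM over the 7 lysates, and the blood, liver and endothelial genes PTPRC, ALB and PECAM1 stayed at or below 0.0456 FPKM. Enrichment is given throughout as the log2 ratio of pulldown to total input after each library was divided by its own total of counts, so that a value of 0 means the same share of counts in both. Differences were tested with edgeR's quasi-likelihood test and Benjamini-Hochberg adjustment over all genes tested, and a gene was called when its adjusted p was below 0.05.

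Complex III, the cytochrome bc1 complex, passes electrons from ubiquinol to cytochrome c and pumps protons across the mitochondrial inner membrane. Its redox centres sit in cytochrome b, which is made inside mitochondria from MT-CYB, in cytochrome c1 (CYC1) and in the Rieske iron-sulfur protein (UQCRFS1), and the core proteins UQCRC1 and UQCRC2 face the matrix. The remaining subunits are short proteins around this core, and all nuclear-encoded subunits are made by cytosolic ribosomes and imported. Here UQCRC1 (480 amino acids, aa), UQCRC2 (453 aa), CYC1 (325 aa) and UQCRFS1 (274 aa) are called the core subunits. UQCRB (111 aa), UQCRH (91 aa), UQCRQ (82 aa), UQCR10 (63 aa) and UQCR11 (56 aa), all under 200 aa, are called the small subunits.

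On GRCh38 with GENCODE 44, the core subunit genes lie at chr3:48599002-48610976 on the minus strand (UQCRC1, ENSG00000010256), chr16:21953288-21983660 on the plus strand (UQCRC2, ENSG00000140740), chr8:144095039-144097525 on the plus strand (CYC1, ENSG00000179091) and chr19:29205320-29213151 on the minus strand (UQCRFS1, ENSG00000169021). The small subunit genes lie at chr8:96222947-96235546 on the minus strand (UQCRB, ENSG00000156467), chr1:46303698-46316776 on the plus strand (UQCRH, ENSG00000173660), chr5:132866630-132868847 on the plus strand (UQCRQ, ENSG00000164405), chr22:29767369-29770413 on the plus strand (UQCR10, ENSG00000184076) and chr19:1597169-1605473 on the minus strand (UQCR11, ENSG00000127540). UQCRFS1, UQCRB and UQCRH have 3, 3 and 5 annotated near copies, and UQCRC2 and UQCR10 have 1 each, so that reads on shared sequence were lost or are uncertain. UQCRB, UQCRQ and UQCR10 each overlap 1 gene on the other strand (UQCRB-AS1, GDF9 and ENSG00000287967). Whether the RNA-seq counting used strand is not given in the sources used here, so such reads cannot be told apart.

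The deposited coding counts did not cover these genes evenly, which bears on every footprint value below. They hold only unmasked positions that are coding in all annotated transcripts of a gene. In GENCODE 44 sharing alone, before masking, leaves the first 149 of the 1440 coding bases of the canonical UQCRC1 transcript, 19 of 333 for UQCRB and 158 of 273 for UQCRH. It leaves 150 of 189 for UQCR10 and 1050 of 1359 for UQCRC2, but all coding bases of CYC1 and UQCRQ. The files give 981 positions for UQCRC2, 208 for UQCRH, 218 for UQCRQ and 165 for UQCR10, against 1114, 322, 246 and 186 shared before masking. The files give 378 coding positions for UQCRB, most of them thus outside its canonical coding sequence. For UQCRFS1 all 822 coding bases are shared, but only 70 positions were unmasked. In the total inputs the coding counts held a median of 18.8% of the footprints over all UQCRB exons, 25.0% for UQCRC1 and 61.9% for UQCRH, against 99.5% for CYC1. Footprints over all exons, a setting chosen after the coding values had been seen, are thus also given for the subunits and the assembly factors. UQCR11 has no footprint entry of its own: the files join it with MBD3 and a readthrough gene on the same strand, and this entry was not tested.

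At the OMM, footprints of 5 of 8 subunits were enriched, against 17.0% of the 6742 genes tested, and none was depleted, against 45.9% of genes. Shares depended on protein length, with 60.1% of the 875 genes under 200 aa and 10.5% of the 5865 longer genes enriched. Of the small subunits 2 of 4 were enriched, near the share of short genes, and of the core subunits 3 of 4. Over all exons 7 of 8 were enriched, against 16.5% of 8440 genes, with UQCRFS1 as the exception, and none was depleted, against 49.0% of genes. The median over the 8 subunits was 0.50 and that over all genes -0.38. With TMM scaling, which brought the median of all genes to -0.06, 6 of 8 subunits were enriched and the split of all calls moved from 1144 higher and 3094 lower to 1742 higher and 1646 lower.

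UQCRQ, a small subunit that contacts cytochrome b, stood highest over coding counts. It had 1603 and 1247 RPKM in the total inputs of OMM replicates 1 and 2 and 6398 and 7071 RPKM in the pulldowns, and its log2 enrichment was 2.03 and 2.51. Both values were far above those at the ER (0.00 and 0.06) and in the cytosol (0.28 and -0.15). The fitted enrichment at the OMM was 2.27 ± 0.12 (SE, edgeR adjusted p = 4.89e-11), a 4.83-fold higher share of footprints in the pulldown than in the total input. UQCR10, the smallest subunit with a footprint entry of its own, had 1.76 and 1.77 at the OMM, and its fitted value was 1.76 ± 0.10 (SE, edgeR adjusted p = 1.02e-10). It had 0.05 and 0.25 at the ER and 0.31 and 0.15 in the cytosol, so that the OMM lysates lay above all others. The entry that joins UQCR11 with MBD3 had 2.26 and 2.41 at the OMM, 0.00 and 0.02 at the ER and -0.03 and -0.08 in the cytosol, and these footprints cannot be assigned to either gene.

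UQCRB, which binds near the quinone site of cytochrome b, and UQCRH, the acidic hinge protein that sits at cytochrome c1, gave different answers over coding counts and over all exons. Coding counts put UQCRB at -0.41 and -0.33 at the OMM, with a fitted value of -0.36 ± 0.17 (SE, edgeR adjusted p = 0.0827). Over all exons UQCRB was at 1.36 and 1.44, with 1.40 ± 0.09 (SE, edgeR adjusted p = 9.59e-10). For UQCRH the coding values were 0.31 and 0.06 and the exon values 1.36 and 0.85, with fitted values of 0.16 ± 0.14 (SE, edgeR adjusted p = 0.32) and 1.08 ± 0.12 (SE, edgeR adjusted p = 6.54e-07). UQCRH was also called over coding counts with TMM scaling (0.48, edgeR adjusted p = 0.0112) and with DESeq2 (0.52, DESeq2 adjusted p = 0.00876). The exon values of both genes at the OMM lay above every exon value of the same gene at the ER and in the cytosol.

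Among the core subunits, UQCRC1 was the most enriched at the OMM. Its share of coding footprints rose by 1.82 ± 0.12 (SE, edgeR adjusted p = 1.32e-09) on the log2 scale, with 1.74 and 1.91 in the 2 lysates, and over all exons the lysates gave 3.15 and 3.35 and the fit 3.25 ± 0.09 (SE, edgeR adjusted p = 1.23e-14). UQCRC2, the other core protein, had 0.56 and 0.36 and a fitted value of 0.46 ± 0.10 (SE, edgeR adjusted p = 0.000838). Its call was lost without the lysate term (0.46, edgeR adjusted p = 0.109) and without OMM replicate 1 (0.36), whereas the fit over all exons gave 0.71 ± 0.09 (SE, edgeR adjusted p = 1.62e-06). CYC1, which carries the c-type haem, had 0.54 and 0.54 and 0.54 ± 0.09 (SE, edgeR adjusted p = 6.02e-05), a call that was lost without the lysate term (0.53, edgeR adjusted p = 0.104). UQCRFS1 was not called, with -0.55 and -0.06 and -0.23 ± 0.22 (SE, edgeR adjusted p = 0.371), a value that turned to 0.0934 with TMM scaling. It rested on 143 and 139.8 coding counts in the total inputs of OMM replicates 1 and 2, against 3238 and 2544 for CYC1.

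**Figure D1:**
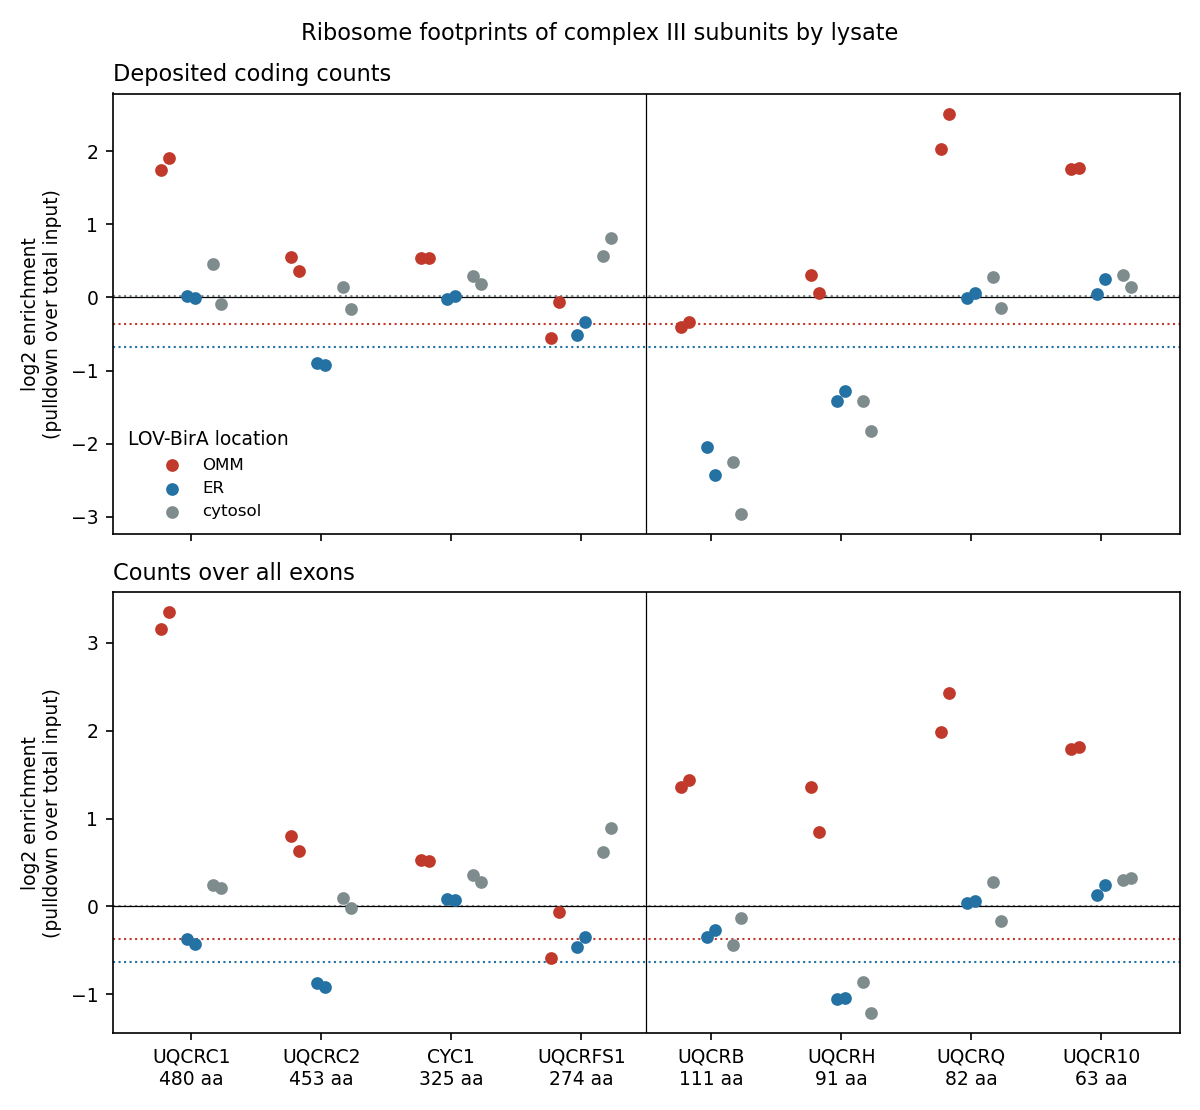
Log2 enrichment of footprints (pulldown over total input, y axis) of 8 complex III subunits, core subunits left and small subunits right of the vertical line, in the 2 lysates of each LOV-BirA location (points), from coding counts (top) and from counts over all exons (bottom). Dotted lines mark the median of all genes tested in each location, averaged over its lysates; UQCRB lies at -0.41 and -0.33 at the OMM over coding counts and at 1.36 and 1.44 over all exons.

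At the ER the subunits lay around or below 0. Over coding counts none of 8 was enriched, against 19.9% of 7390 genes, and UQCRC2, UQCRFS1, UQCRB and UQCRH were depleted, against 72.0% of genes. UQCRC1 had 0.02 and -0.01, CYC1 -0.02 and 0.02, UQCRQ 0.00 and 0.06 and UQCR10 0.05 and 0.25 in ER replicates 1 and 2, all above the median of all genes (-0.68). With TMM scaling, where that median was -0.03, these 4 were enriched instead (fitted values of 0.65, 0.65, 0.67 and 0.79) and UQCRFS1 was no longer depleted (0.20). Calls of all genes moved at the same time from 1469 higher and 5322 lower to 2160 higher and 1876 lower. The depletion of UQCRFS1 (-0.44 ± 0.16 SE, edgeR adjusted p = 0.016) was also lost without ER replicate 1 (-0.34, edgeR adjusted p = 0.251) and without ER replicate 2 (-0.52, edgeR adjusted p = 0.0576). UQCRC2, at -0.89 and -0.92 in the lysates, had -0.91 ± 0.10 (SE, edgeR adjusted p = 1.14e-07), which lay -0.23 from the median of all genes, and it was still depleted with TMM scaling (-0.26). UQCRB was at -2.21 ± 0.15 (SE, edgeR adjusted p = 2.61e-10) over coding counts and at -0.31 ± 0.09 (SE, edgeR adjusted p = 0.00306) over all exons, and the exon value turned to a called enrichment with TMM scaling (0.30, edgeR adjusted p = 0.00826). UQCRH had -1.36 ± 0.12 (SE, edgeR adjusted p = 9.89e-09) over coding counts and -1.05 ± 0.11 (SE, edgeR adjusted p = 8.26e-08) over all exons. In all, 1 of 8 subunits (UQCR10, 0.18) was enriched and 5 were depleted over all exons at the ER, against 20.9% and 72.0% of 9004 genes. UQCRC1 was among the depleted ones (-0.40 ± 0.08 SE, edgeR adjusted p = 0.00015), and it turned to 0.21 over all exons with TMM scaling (edgeR adjusted p = 0.0418).

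In the cytosol, 2 of 7 subunits tested, UQCRB and UQCRH, were depleted over coding counts and none was enriched, against 5.95% and 2.04% of 7173 genes. UQCRB had -2.25 and -2.96 in cytosol replicates 1 and 2 and a fitted value of -2.58 ± 0.15 (SE, edgeR adjusted p = 1.37e-09). Over all exons its values were -0.44 and -0.13 and the fit gave -0.29 ± 0.09 (SE, edgeR adjusted p = 0.0455). UQCRH had -1.42 and -1.83 over coding counts and -0.86 and -1.22 over all exons, and was depleted in both fits (-1.61 and -1.03). Over all exons UQCR10 (0.31) and CYC1 (0.31) were also called, as enriched, against 3.57% of genes higher and 6.84% lower. UQCRFS1 had 402 and 62.3 coding counts in the total inputs, the second below the minimum of 64, and was not tested. Per the file headers, cytosol replicate 1 had its pulldown and its total input read from the directories of different runs. Without that lysate UQCRC1 (-0.0926) and UQCRQ (-0.15) turned sign, neither being called, and without cytosol replicate 2 UQCRC1 was called enriched (0.46, edgeR adjusted p = 0.00837).

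The location contrast compares enrichment at the OMM with that at the ER directly. OMM enrichment exceeded ER enrichment for 7 of 8 subunits, against 31.0% of 6691 genes, and none was lower, against 18.5%. By length, 66.1% of genes under 200 aa and 25.8% of longer ones were higher, against 4 of 4 small and 3 of 4 core subunits. Over all exons the same counts were reached, against 30.2% of genes higher and 20.9% lower. The differences were 2.24 ± 0.16 (SE, edgeR adjusted p = 1.96e-09) for UQCRQ, 1.85 ± 0.23 (SE, edgeR adjusted p = 1.90e-06) for UQCRB, 1.82 ± 0.17 (SE, edgeR adjusted p = 3.89e-08) for UQCRC1, 1.61 ± 0.13 (SE, edgeR adjusted p = 9.56e-09) for UQCR10, 1.52 ± 0.19 (SE, edgeR adjusted p = 1.43e-06) for UQCRH and 1.36 ± 0.14 (SE, edgeR adjusted p = 1.54e-07) for UQCRC2. Each of the pairings of an OMM with an ER lysate gave a positive difference for each of these genes. UQCRB, for which coding and exon counts disagreed within each location, had differences between locations of 1.85 over coding counts and 1.71 over all exons. For UQCRC1 the difference over all exons was 3.65 ± 0.12 (SE, edgeR adjusted p = 2.04e-13). CYC1 had a smaller difference, 0.53 ± 0.12 (SE, edgeR adjusted p = 0.0015), which was not called with TMM scaling (0.21, edgeR adjusted p = 0.207). UQCRFS1 was not called (0.22 ± 0.27 SE, edgeR adjusted p = 0.529), and its pairings ran from -0.21 to 0.46. The median of all genes was 0.28 in this contrast. The second replicates of OMM and ER share 1 run directory, and within it the differences were 2.46 for UQCRQ, 2.10 for UQCRB, 1.92 for UQCRC1, 1.52 for UQCR10, 1.34 for UQCRH, 1.28 for UQCRC2, 0.51 for CYC1 and 0.28 for UQCRFS1.

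Against the cytosol, OMM enrichment was higher for 6 of 7 subunits and lower for none, against 16.5% and 39.7% of 6482 genes. By length, 60.7% of genes under 200 aa and 9.78% of longer ones were higher, against 4 of 4 small and 2 of 3 core subunits. Over all exons again 6 of 7 were higher and none lower, against 15.9% and 41.9% of genes. Over coding counts UQCRB and UQCRQ differed most, by 2.22 ± 0.23 (SE, edgeR adjusted p = 8.51e-07) and 2.21 ± 0.16 (SE, edgeR adjusted p = 9.62e-09), followed by UQCRH (1.78 ± 0.19), UQCRC1 (1.63 ± 0.17) and UQCR10 (1.53 ± 0.13). Over all exons the order was another, with UQCRC1 first (3.02 ± 0.12 SE, edgeR adjusted p = 4.08e-12), before UQCRQ (2.15), UQCRH (2.11), UQCRB (1.69) and UQCR10 (1.496). Without the lysate term UQCRC1 (1.67, edgeR adjusted p = 0.0604) and UQCRC2 (0.48, edgeR adjusted p = 0.278) lost their calls over coding counts. UQCRC2 passed at 0.47 ± 0.14 (SE, edgeR adjusted p = 0.00932), and was not called without OMM replicate 1 (0.37, edgeR adjusted p = 0.124) without cytosol replicate 2 (0.32, edgeR adjusted p = 0.0545) or with scaling by all reads on annotated transcripts (0.21, edgeR adjusted p = 0.216). CYC1 did not pass (0.29 ± 0.12 SE, edgeR adjusted p = 0.0516), although its OMM values lay above both cytosol values, and it passed with TMM scaling (0.61, edgeR adjusted p = 0.000939) and without cytosol replicate 1 (0.35, edgeR adjusted p = 0.03). UQCRFS1, not tested here for want of counts, ran the other way, with lower enrichment at the OMM than in the cytosol in each of the 4 pairings of lysates, from -1.37 to -0.63 over coding counts and from -1.48 to -0.68 over all exons. It was called lower with a minimum of 10 counts.

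Splitting the footprints of a gene into its shared coding positions and its other exon positions compares parts of 1 gene within 1 lysate, so that library scaling cancels. For UQCRC1, 149 of the 204 positions shared in GENCODE 44 are the first coding bases of the canonical transcript and the rest lie outside its coding sequence. Enrichment in the other positions exceeded that in the shared ones by 1.68 and 1.66 on the log2 scale in OMM replicates 1 and 2, whereas the difference was -0.71 and -0.59 at the ER and -0.39 and 0.29 in the cytosol. Shared and other positions of UQCRC1 were thus at 1.74 and 1.91 and at 3.42 and 3.57 at the OMM. UQCRC2, whose shared positions end before the last coding bases, had differences of 1.09 and 1.06 at the OMM, -0.48 and -0.27 at the ER and -0.64 and 0.25 in the cytosol. UQCRH had 1.81 and 1.55, 0.64 and 0.37 and 1.04 and 1.24 in the same order. In these 3 genes the OMM lysates lay above those of the other locations, with no overlap, but the split was not made over all genes. The small UQCR10 had 0.17 and 0.20 at the OMM, between its cytosol values of -0.40 and 0.39. UQCRB differed in the same direction in every location, by 2.00 and 1.99 at the OMM, 1.79 and 2.30 at the ER and 1.98 and 3.07 in the cytosol. UQCRQ differed the other way in every location, by -1.19 and -1.74 at the OMM, -1.59 and -1.56 at the ER and -1.64 and -3.38 in the cytosol, and its OMM values overlapped the others. CYC1 and UQCRFS1 had at most 41.0 and 12.6 counts in their other positions in any total input and were left out. This split was made after the values had been seen, no test was run on it, and the other positions take in UTRs as well as coding bases.

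**Figure D2:**
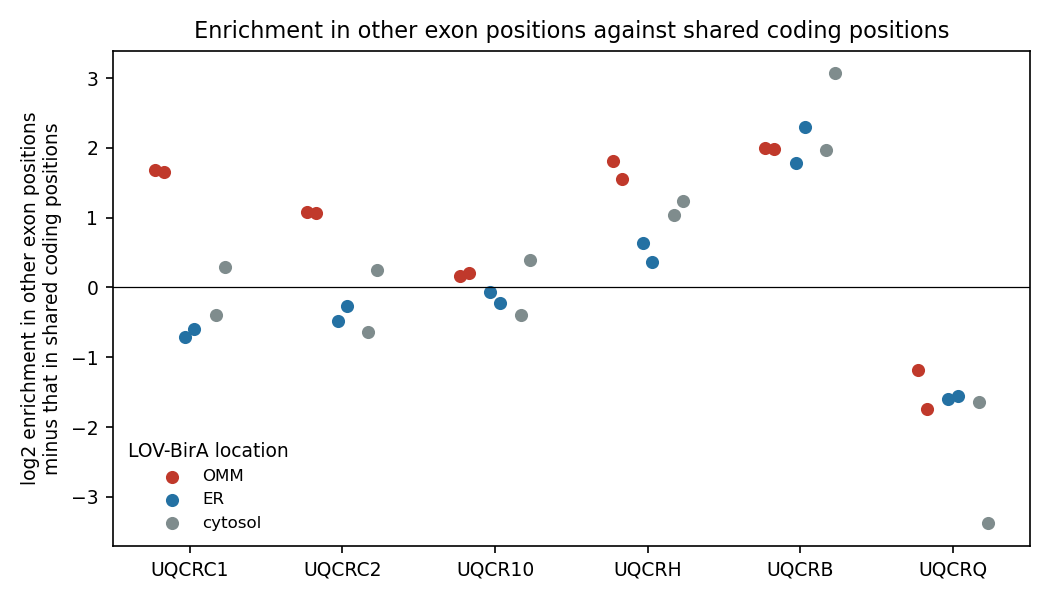
Difference in log2 enrichment between the other exon positions and the shared coding positions of a gene (y axis) for 6 subunits, in the 2 lysates of each LOV-BirA location (points). UQCRC1 and UQCRC2 stand at 1.68 and 1.66 and at 1.09 and 1.06 at the OMM and at -0.39 and 0.29 and -0.64 and 0.25 in the cytosol, while UQCRB lies high and UQCRQ low in all 6 lysates, with 1.79 and 2.30 and -1.59 and -1.56 at the ER.

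Intact mRNAs of all 9 subunits were enriched in the OMM pulldown of wild-type cells, against 20.2% of 13856 genes higher and 45.6% lower. By length, 63.1% of genes under 200 aa and 15.0% of longer ones were higher. The median over subunits was 1.66 and that over all genes -0.28. UQCRC1 was the most enriched (3.10 and 3.34 in wild-type replicates 1 and 2, 3.22 ± 0.15 SE, edgeR adjusted p = 6.15e-06), followed by UQCRQ (2.71 and 2.82), UQCR11 (2.37 and 2.37), UQCR10 (1.69 and 1.81) and UQCRB (1.63 and 1.69). UQCR10 and UQCRB had fitted values (1.75 ± 0.13 and 1.66 ± 0.11) that did not differ beyond their standard errors, and neither did UQCRH (1.26 ± 0.10) and CYC1 (1.18 ± 0.10). UQCRC2 (0.67 and 0.82) and UQCRFS1 (0.57 and 0.68) came last, and were still called (0.000194 and 0.00151, edgeR adjusted p). With TMM scaling all 9 remained called, while calls of all genes moved from 2803 higher and 6324 lower to 4296 and 3847. UQCR11, which had no footprint entry of its own, could be measured here, on 1847 and 2380 counts in the total inputs.

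The AKAP1 null line addresses whether AKAP1, an anchoring protein of the OMM that binds RNA, matters for these mRNAs. AKAP1 mRNA itself had 21.4 and 22.4 FPKM in wild-type total inputs and 6.02 and 3.81 FPKM in AKAP1 null total inputs, a fitted difference of -2.15 ± 0.22 (SE, edgeR adjusted p = 0.242). The groups did not overlap, although the adjusted p did not pass. Per the study's methods, null clones were picked by Western blot for loss of the protein, which mRNA levels do not measure. The mRNAs of the complex III subunits then moved in opposite directions. All 5 small subunits were less enriched at the OMM than in wild-type cells, against 7.96% of 13856 genes, and the core proteins UQCRC1 and UQCRC2 were more enriched, against 6.52% of genes. By length, 39.5% of genes under 200 aa and 3.24% of longer ones were less enriched. Calls of all genes were 903 higher and 1103 lower, and 285 higher and 1424 lower with TMM scaling.

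UQCRQ mRNA dropped most, from 2.71 and 2.82 in wild-type lysates to 0.53 and 0.43 in AKAP1 null lysates, a difference of -2.28 ± 0.14 (SE, edgeR adjusted p = 0.000158) or 4.87-fold lower enrichment. UQCR11 went from 2.37 and 2.37 to 0.46 and 0.18 (-2.05 ± 0.13 SE, edgeR adjusted p = 0.000191). UQCRH went from 1.25 and 1.28 to -0.29 and -0.33 and was the only subunit with negative values in AKAP1 null lysates (-1.57 ± 0.14 SE, edgeR adjusted p = 0.000409). UQCRB had 0.22 and 0.28 and UQCR10 0.72 and 0.16 in AKAP1 null lysates, with differences of -1.41 ± 0.15 (SE, edgeR adjusted p = 0.000716) and -1.31 ± 0.18 (SE, edgeR adjusted p = 0.00259). In each of the 5 small subunits both AKAP1 null values lay below both wild-type values, but how many of all genes did so was not counted. These calls held with any 1 of the 4 lysates concerned left out, and UQCR10 alone was not called when the lysate term was left out (-1.32, edgeR adjusted p = 0.0544).

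UQCRC2 showed the opposite change, from 0.67 and 0.82 in wild-type to 1.92 and 2.09 in AKAP1 null lysates (1.25 ± 0.13 SE, edgeR adjusted p = 0.000662). UQCRC1, already the most enriched, went from 3.10 and 3.34 to 4.01 and 4.59 (1.08 ± 0.20 SE, edgeR adjusted p = 0.00881). This call was lost without wild-type replicate 1 (0.96, edgeR adjusted p = 0.0955), wild-type replicate 2 (1.20, edgeR adjusted p = 0.0527) or AKAP1 null replicate 2 (0.79, edgeR adjusted p = 0.0766). The median of all genes rose by 0.19 in this contrast, and both differences exceeded it. CYC1 (0.76 and 0.68 in AKAP1 null lysates, -0.46 ± 0.14 SE, edgeR adjusted p = 0.0593) and UQCRFS1 (0.11 and 0.36, -0.39 ± 0.16 SE, edgeR adjusted p = 0.132) had lower values than in wild-type cells and were not called, apart from CYC1 with TMM scaling (-0.63, edgeR adjusted p = 0.0363) and with DESeq2 (-0.61, DESeq2 adjusted p = 0.01). Within AKAP1 null cells, UQCRC1 (4.30), UQCRC2 (2.00) and CYC1 (0.72) were still enriched at the OMM, as were UQCRQ (0.48), UQCR10 (0.44) and UQCR11 (0.32), which makes 6 of 9 subunits against 13.9% of 13856 genes. By length, 30.5% of genes under 200 aa and 13.5% of longer ones were enriched there. The calls of UQCRQ and UQCR11 were lost without AKAP1 null replicate 1 (0.43 and 0.18) and without replicate 2 (0.53 and 0.46), and that of UQCR10 without replicate 1 (0.16). UQCRH was depleted (-0.31 ± 0.10 SE, edgeR adjusted p = 0.034), against 28.1% of genes, a call that was lost with TMM scaling (-0.19, edgeR adjusted p = 0.249) and without AKAP1 null replicate 1 (-0.33) or 2 (-0.29).

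**Figure D3:**
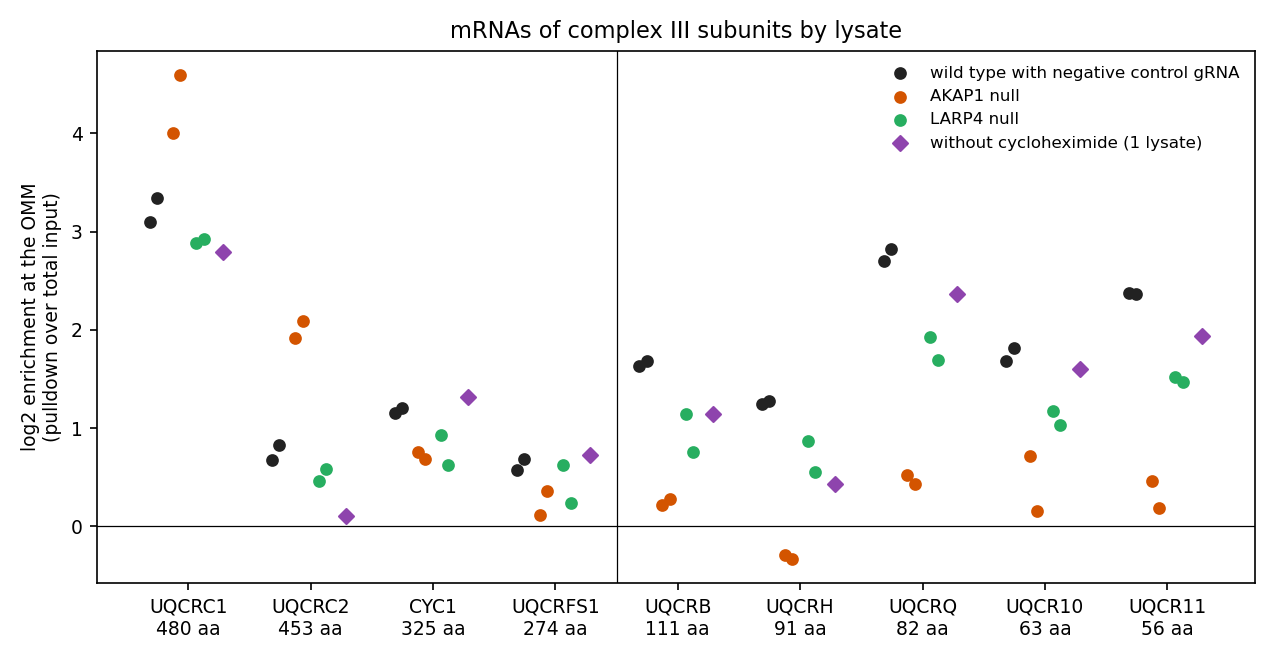
Log2 enrichment of subunit mRNAs in the OMM pulldown (y axis) in wild-type, AKAP1 null and LARP4 null lysates (circles, 2 each) and in the lysate without CHX (diamonds), core subunits left and small subunits right of the vertical line. AKAP1 null values lie above the wild-type values for UQCRC1 and UQCRC2 and below them for the other 7 subunits; how many of all genes show either order was not counted.

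LARP4, an RNA-binding protein that binds poly(A), was tested in the same way. LARP4 mRNA had 27.7 and 28.5 FPKM in wild-type and 9.78 and 9.12 FPKM in LARP4 null total inputs (-1.56 ± 0.12 SE, edgeR adjusted p = 0.0405). All 9 subunit mRNAs remained enriched at the OMM in LARP4 null cells, against 22.8% of 13856 genes higher and 30.0% lower, with fitted values from 0.43 (UQCRFS1) to 2.90 (UQCRC1). By length, 60.8% of genes under 200 aa and 17.9% of longer ones were higher. UQCRFS1 was not called without LARP4 null replicate 1 (0.24, edgeR adjusted p = 0.0545). None differed from wild type in the edgeR fit, in which 0 of 13856 genes were called (0%) and 2270 had an unadjusted p below 0.05, 6 of the 9 subunits among them, all 5 small ones included, and DESeq2 called 2 genes higher and 454 lower, 6 of the 9 subunits among the latter. The small subunits had differences of -0.96 ± 0.13 (UQCRQ), -0.87 ± 0.13 (UQCR11), -0.71 ± 0.15 (UQCRB), -0.64 ± 0.18 (UQCR10) and -0.55 ± 0.14 (UQCRH), with edgeR adjusted p values from 0.16 to 0.295. Both LARP4 null values of each small subunit lay below both wild-type values, but how many of all genes did so was not counted. Genes under 200 aa as a class lay lower in this contrast, with a median of -0.15 against 0.18 for longer ones. Without LARP4 null replicate 1, 7 subunits were called lower among 4521 higher and 1143 lower calls of all genes, and without LARP4 null replicate 2, UQCRQ and UQCR11 were called lower. The core subunits had -0.32 (UQCRC1), -0.22 (UQCRC2), -0.41 (CYC1) and -0.19 (UQCRFS1). Both null lines were set against the same wild-type lysates.

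A direct comparison of the null lines used the wild-type lysates for neither side. AKAP1 null lysates had higher enrichment of UQCRC1 (1.40 ± 0.20 SE, edgeR adjusted p = 0.0056) and UQCRC2 (1.48 ± 0.13 SE, edgeR adjusted p = 0.00172) than LARP4 null lysates, against 1.72% of 13856 genes. UQCRQ (-1.33 ± 0.13 SE, edgeR adjusted p = 0.00183), UQCR11 (-1.18 ± 0.13 SE, edgeR adjusted p = 0.0026), UQCRH (-1.02 ± 0.14 SE, edgeR adjusted p = 0.00503) and UQCRB (-0.70 ± 0.15 SE, edgeR adjusted p = 0.0369) had lower enrichment, against 2.94% of genes, and UQCR10 did not pass (-0.67 ± 0.18 SE, edgeR adjusted p = 0.0922). By length, 17.3% of genes under 200 aa and 0.847% of longer ones were lower. UQCR10 was called lower with DESeq2 (-0.61, DESeq2 adjusted p = 0.04) and without LARP4 null replicate 1 (-0.60, edgeR adjusted p = 0.00687) or 2 (-0.74, edgeR adjusted p = 0.00305). None of these 6 calls was kept without AKAP1 null replicate 2, with values of 1.11 for UQCRC1, 1.39 for UQCRC2, -1.28 for UQCRQ, -1.04 for UQCR11 and -0.73 for UQCRB and an edgeR adjusted p of 0.102 for UQCRH. Without AKAP1 null replicate 1 the calls of UQCRH (-1.04) and UQCRB (-0.67) were lost. UQCRB was also lost with TMM scaling (-0.66, edgeR adjusted p = 0.101).

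**Figure D4:**
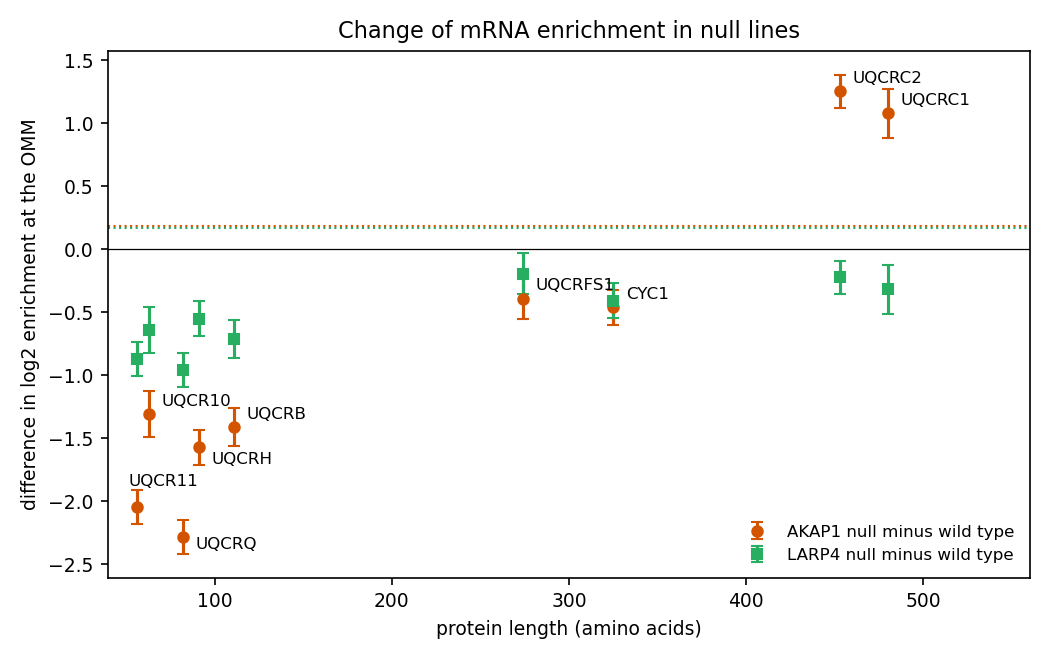
Fitted difference in log2 enrichment of mRNA at the OMM (y axis, bars are ± 1 SE) between each null line and wild type against protein length (x axis) for the 9 subunits. Dotted lines mark the median of all genes; the 5 small subunits lie between -2.28 and -1.31 for AKAP1 null and between -0.96 and -0.55 for LARP4 null cells.

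Small and core subunits were compared by their medians within each lysate, for which no test was run because genes are not replicates. In wild-type RNA-seq the small subunits exceeded the core subunits by 0.77 and 0.79 in replicates 1 and 2, or by 0.55 and 0.48 with means. In LARP4 null lysates they did so by 0.40 and 0.43, or by 0.10 and 0.00848 with means in place of medians. In AKAP1 null lysates the order turned, with differences of -0.88 and -1.20, or of -1.37 and -1.79 with means. UQCRC1 remained above every small subunit in all 7 RNA-seq lysates. Over all genes, mRNAs of proteins under 200 aa had a median of 0.55 and 0.62 and those of longer proteins -0.32 and -0.38 in wild-type replicates 1 and 2, against 1.69 and 1.81 for the small and 0.91 and 1.02 for the core subunits. In the AKAP1 null contrast, 39.5% of the 1476 genes under 200 aa were called lower and 3.24% of the 10622 longer ones, with medians of -0.43 and 0.24. The small subunits, at a median of -1.57, lay below the first of these.

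Over footprints, small minus core was 0.49 and 0.47 at the OMM from coding counts and 0.91 and 1.05 over all exons. At the ER it was -0.44 and -0.44 from coding counts and 0.26 and 0.29 over all exons, so that the order depended on the positions counted. In the cytosol it was negative in both, -0.95 and -1.04 and -0.38 and -0.39. The OMM was the location with the highest difference under either count. Genes under 200 aa had OMM medians of 0.58 and 0.57 and longer genes -0.47 and -0.46.

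No subunit was called between genotypes in the total inputs, the level from which enrichment was computed. UQCRH and UQCR10 were the most abundant per length, with medians of 122 and 110 FPKM over the 7 total inputs, and UQCRB (21.2 FPKM), UQCR11 (22.9 FPKM) and UQCRFS1 (25.5 FPKM) the least. The UQCRB level divides by an annotated exon length of 12600 nt, as long as the gene itself, and before this division UQCRB had the most counts of the 9 subunits in each of the 7 total inputs (between 10007 and 26029). In AKAP1 null against wild-type total inputs the 9 subunits lay between -0.27 (UQCR10) and 0.18 (UQCRB) on the log2 scale, and in LARP4 null cells between -0.31 (UQCR10) and 0.18 (UQCRC1). These stood among 0 (0%) and 2 (0.0143%) of 13977 genes called by edgeR. The genes with an unadjusted p below 0.05 numbered 489 and 509, none of them a subunit, and DESeq2 called 8 higher and 7 lower in AKAP1 null and 14 higher and 14 lower in LARP4 null cells.

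Without CHX, a single lysate gave a log2 enrichment of 2.79 for UQCRC1, 2.37 for UQCRQ, 1.94 for UQCR11, 1.597 for UQCR10, 1.32 for CYC1, 1.14 for UQCRB, 0.73 for UQCRFS1, 0.44 for UQCRH and 0.10 for UQCRC2. These have no replicate, the light induction also differed, and the labels name no genotype or gRNA for this lysate. All 9 values were above 0, and the median was -0.11 over all genes, 0.36 over genes under 200 aa and -0.14 over longer ones. UQCRH and UQCRC2 lay furthest below their wild-type values with CHX (1.25 and 1.28, and 0.67 and 0.82), while CYC1 and UQCRFS1 lay slightly above theirs.

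Genes that assemble the complex or work beside it were described from a list of 9 assembly factors (UQCC1 to UQCC6, BCS1L, LYRM7 and TTC19), MT-CYB and CYCS. At the OMM 4 of the 7 assembly factors tested were enriched in footprints, against 17.0% of genes, and none was depleted, against 45.9%. Of all genes under 200 aa 60.1% were enriched, and of longer ones 10.5%. The enriched factors were UQCC5 (1.72 ± 0.15 SE, edgeR adjusted p = 2.80e-08), UQCC3 (1.39 ± 0.12 SE, edgeR adjusted p = 4.10e-08), UQCC2 (1.34 ± 0.10 SE, edgeR adjusted p = 4.67e-09) and BCS1L (1.30 ± 0.13 SE, edgeR adjusted p = 2.64e-07), the AAA protein that inserts the Rieske subunit. UQCC3 was also enriched at the ER (1.28 ± 0.10 SE, edgeR adjusted p = 2.98e-09), and its OMM minus ER difference was not called (0.12 ± 0.16 SE, edgeR adjusted p = 0.567). UQCC5, UQCC2 and BCS1L had differences of 1.97, 1.596 and 1.18, all called, which makes 3 of 7 factors higher and none lower over coding counts, against 31.0% and 18.5% of genes. Over all exons 4 of 9 were higher and 1 was lower, TTC19 (-0.67 ± 0.16 SE, edgeR adjusted p = 0.00186), against 30.2% and 20.9% of genes. At the ER 3 of 9 were enriched over all exons, TTC19 (0.59) and UQCC1 (0.60) among them, and 2 were depleted, against 20.9% and 72.0% of genes. TTC19 (0.07), UQCC4 (0.07) and LYRM7 (0.21), the chaperone of the Rieske protein, were not called at the OMM over coding counts. Over all exons 5 of 9 factors were enriched at the OMM, UQCC6 (0.90) among them, and none was depleted, against 16.5% and 49.0% of genes. In wild-type RNA-seq 6 of 9 assembly factors were enriched, against 20.2% of genes, and LYRM7 alone was depleted (-1.05 ± 0.08 SE, edgeR adjusted p = 2.83e-05), against 45.6% of genes.

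In the AKAP1 null contrast 4 of 9 assembly factors were less enriched, UQCC5 (-1.90 ± 0.17 SE, edgeR adjusted p = 0.000424), UQCC3 (-1.19 ± 0.21 SE, edgeR adjusted p = 0.00803), UQCC6 (-0.9997 ± 0.14 SE, edgeR adjusted p = 0.00235) and UQCC2 (-0.94 ± 0.15 SE, edgeR adjusted p = 0.00439), and none was more enriched, against 7.96% and 6.52% of all genes. These proteins have 70, 93, 71 and 126 aa, and of all genes under 200 aa 39.5% were less enriched. BCS1L (419 aa) had 0.51 ± 0.16, in the direction of UQCRC1 and UQCRC2, and was not called. MT-CYB, translated by mitochondrial ribosomes that carry no RPL29, fell in every pulldown, with -2.94 and -3.91 at the OMM, -5.53 and -4.91 at the ER and -5.67 and -4.52 in the cytosol, and it is listed at 0 in all RNA-seq libraries. CYCS, the soluble electron carrier that complex III reduces, was not called in footprints at the OMM (0.40 ± 0.24 SE, edgeR adjusted p = 0.151) and had only 25 unmasked coding positions. Its mRNA was enriched in wild-type cells (0.50 ± 0.11 SE, edgeR adjusted p = 0.00489). UQCRHL, a near copy of UQCRH, had no footprint counts in the total inputs, and its mRNA stood at 0.969 and 1.21 FPKM in wild-type total inputs against 117 and 126 FPKM for UQCRH.

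Among 6423 other genes that passed both count minimums, those nearest to the mean of the small subunits (4 in footprint and 5 in RNA-seq lysates) over the 13 lysates were TXN, PDCD5, RPL22L1, RPL35A and NDUFS4, with root mean square differences of 0.222, 0.233, 0.242, 0.244 and 0.273 on the log2 scale. They encode thioredoxin, a protein linked to cell death, a relative of ribosomal protein L22, a ribosomal protein and a complex I subunit, of 105, 125, 122, 110 and 175 aa. The small subunits were themselves farther from their mean, at 0.668 (UQCRH), 0.712 (UQCR10), 0.883 (UQCRQ) and 1.01 (UQCRB). For footprints the mean and all these differences used coding counts. Those put UQCRB at -2.04 and -2.43 at the ER, against -0.35 and -0.26 over all exons. In the cytosol they put UQCRB at -2.25 and -2.96, against -0.44 and -0.13. Exon counts were not tried for this measure. The core subunits stood at 0.733 (CYC1), 1.06 (UQCRC2) and 1.95 (UQCRC1), and UQCR11 and UQCRFS1 had no value. Among the subunits with a value, this measure did not separate the small from the core ones.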

How the data were processed

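Footprints and mRNA were measured in 26 libraries from 13 lysates. Estimated counts of footprints per gene were deposited by the authors, who removed rRNA and tRNA reads with Bowtie, aligned with TopHat to GRCh38 and counted unique alignments of 27 to 36 nt with plastid (center mapping after trimming 13 nt at each end, Ensembl 104). The authors' RPKM values divide these by unmasked length and by all reads on annotated transcripts, and only give levels here. For RNA-seq the authors aligned with STAR and deposited featureCounts counts. The column that the authors named FPKM (a score here) was 10 times the FPKM computed from their counts and was not used, and FPKM was recomputed. The labels name polyA RNA and the study's methods name rRNA depletion for these libraries, which was not settled. Between 3 and 7 broken lines per RNA-seq file were skipped.

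Estimated counts were rounded for the fits. edgeR 4.0.16 (R 4.3.3) fitted quasi-likelihood models, 2-sided, with library totals as scale, a term for each lysate and a pulldown effect per line. Footprint tests took genes with at least 64 counts in each total input of the locations compared. RNA-seq tests took genes with a mean of at least 64 counts over the libraries fitted. Footprint lines entered 1 fit and the RNA-seq lines with replicates another. Total inputs were compared with TMM scaling. The lysate term pairs pulldown and total input, which per the study's methods come from 1 lysate; their replicate deviations correlated at between 0.58 and 0.88 over genes. Per-lysate values used library totals, for footprints in place of the planned RPKM ratio so that they share the scale of the fit, and a pseudocount of 0.5 for RNA-seq. Settings tried were TMM, DESeq2 1.42.0, a minimum of 10 counts, no lysate term, scaling by all reads on transcripts, footprints over all exons and leaving out each lysate. The fits were also run on simulated data, but no outcome is given here and no result rests on that run. The genes named were the 9 subunits, the complex III list, UQCRHL, AKAP1, LARP4 and the 5 genes nearest to the mean of the small subunits; members and lists were chosen with earlier results of these data known. UQCRFS1 had the thinnest footprint counts of the subunits, between 62.3 and 402 counts in the total inputs.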

Additional observations from a re-analysis of the deposited data

Results flagged for a closer look

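Differences between groups that passed the test of the difference itself are listed here, with edgeR adjusted p below 0.05. OMM minus ER footprint enrichment was 1.82 for UQCRC1, 1.36 for UQCRC2, 0.53 for CYC1, 1.85 for UQCRB, 1.52 for UQCRH, 2.24 for UQCRQ and 1.61 for UQCR10. OMM minus cytosol footprint enrichment was 1.63 for UQCRC1, 0.47 for UQCRC2, 2.22 for UQCRB, 1.78 for UQCRH, 2.21 for UQCRQ and 1.53 for UQCR10.

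AKAP1 null minus wild-type mRNA enrichment at the OMM was 1.08 for UQCRC1 and 1.25 for UQCRC2, against -1.41 for UQCRB, -1.57 for UQCRH, -2.28 for UQCRQ, -1.31 for UQCR10 and -2.05 for UQCR11. AKAP1 null minus LARP4 null enrichment was 1.40 for UQCRC1, 1.48 for UQCRC2, -0.70 for UQCRB, -1.02 for UQCRH, -1.33 for UQCRQ and -1.18 for UQCR11.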

How the results depend on the processing

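With 2 lysates per line every test rests on few degrees of freedom, and each null line is 1 clone. Footprint values of UQCRC1, UQCRB and UQCRH hold a part of each gene, and UQCRFS1 was thinly counted. TMM scaling moved the median of all genes from -0.38 to -0.06 at the OMM, from -0.68 to -0.03 at the ER, from -0.28 to 0.01 in wild-type RNA-seq and from 0.19 to 0.01 in the AKAP1 null contrast, so that directions near 0 depend on the scale. The OMM minus ER median went from 0.28 to -0.05 and that of OMM minus cytosol from -0.36 to -0.04. All-gene calls of OMM minus ER went from 2075 higher and 1241 lower to 949 and 1515 with TMM scaling, and those of OMM minus cytosol from 1070 and 2572 to 1588 and 1347. Those within AKAP1 null cells went from 1930 and 3892 to 2772 and 2865. Causes of the changes below were not tested.

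Without the lysate term (no replicate block), 3 subunits were called higher at the OMM in footprints, among 514 of all genes (1144 with the term), 3 higher and 0 lower in AKAP1 null RNA-seq, among 632 and 1566 (1930 and 3892 with it), and 1 lower in AKAP1 null minus LARP4 null, among 20 (408 with it). In OMM minus cytosol UQCRC1 (1.67, edgeR adjusted p = 0.0604) and UQCRC2 (0.48, edgeR adjusted p = 0.278) lost their calls and 4 were higher, among 199 genes, and in OMM minus ER CYC1 lost its call (0.53, edgeR adjusted p = 0.322) and 6 were higher, among 507. Calls of UQCRC2 and CYC1 at the OMM, of UQCRFS1 at the ER, of UQCRQ, UQCR10, UQCR11 and UQCRH in AKAP1 null cells, of UQCRC2 and UQCRFS1 in LARP4 null cells and of UQCRB, UQCRH and UQCR11 in AKAP1 null minus LARP4 null were lost in the same fit. Total inputs shared only replicate numbers (correlations of 0.19, 0.34 and -0.07 between lines), and the replicate block left 0 subunits called there.

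Subunits called higher at the ER numbered 4 with TMM scaling, 4 with DESeq2, 4 with scaling by all reads on annotated transcripts, 1 over all exons and 5 over all exons with TMM scaling, which left 2 lower. Higher calls of all genes at the ER were 2160, 1918, 1610, 1878 and 2754 in the same order, against 1469. In the cytosol, 1 was called higher with a minimum of 10 counts, 2 over all exons, 2 over all exons with TMM scaling (with 1 lower) and 3 with scaling by all reads, and higher calls of all genes were 148, 321, 320 and 2388 in the same order, against 146. A minimum of 10 counts brought 1 subunit, UQCRFS1, to a lower call in OMM minus cytosol. UQCRH lost its lower call in AKAP1 null cells with TMM scaling and DESeq2 (0 lower), and DESeq2 called 6 subunits lower in LARP4 null minus wild type and, in AKAP1 null cells, UQCRB (0.39) and UQCRFS1 (0.38) higher. CYC1 in OMM minus ER was not called with DESeq2 (0.27), all exons with TMM (0.17) or scaling by all reads (0.23), and in OMM minus cytosol it was called with DESeq2 (0.62) and all exons with TMM (0.53). UQCRFS1 at the ER was not called with scaling by all reads (-0.15).

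Signs turned for UQCRFS1 at the OMM (TMM 0.0934, DESeq2 0.11, exons with TMM 0.0921), at the ER (0.20, 0.17 and 0.20 in the same order) and in OMM minus ER (-0.11, -0.0636 and -0.11, and -0.0935 with scaling by all reads). UQCRB turned to 1.40 over all exons and 1.73 over all exons with TMM at the OMM, and to 0.30 with the latter at the ER. UQCRC1 turned to -0.40 over all exons at the ER. UQCRC2 in the cytosol, near 0, turned to 0.0124 (DESeq2), 0.0405 (exons), 0.0483 (exons with TMM) and 0.22 (all reads). CYC1 in AKAP1 null minus LARP4 null turned to 0.0076 with DESeq2.

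Small minus core became 0.33 at the OMM, -0.52 at the ER, -1.26 in the cytosol, 0.52 in wild-type, -1.58 in AKAP1 null, 0.0552 in LARP4 null cells and 0.26 without CHX with means in place of medians. Over all exons it was 0.98, 0.28 and -0.38 at the OMM, ER and cytosol, and with the joint entry counted as UQCR11 1.27, 0.23 and -0.30. Without UQCR11 it was 0.74 in wild-type, 0.34 in LARP4 null cells and 0.35 without CHX.

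Leaving out each replicate in turn leaves 1 line with a single lysate, so that subunit counts of calls are not given here. Subunits gained or lost calls in cytosol footprint enrichment, OMM minus cytosol footprint enrichment and AKAP1 null OMM mRNA enrichment. Likewise, 0 subunits were called lower for AKAP1 null OMM mRNA enrichment, 1 to 2 subunits were called higher for AKAP1 null minus wild-type OMM mRNA enrichment, 0 to 7 subunits were called lower for LARP4 null minus wild-type OMM mRNA enrichment, 0 to 2 subunits were called higher for AKAP1 null minus LARP4 null OMM mRNA enrichment and 0 to 6 subunits were called lower for AKAP1 null minus LARP4 null OMM mRNA enrichment. Values that turned sign with a replicate left out ranged, for ER footprint enrichment, in UQCRC1 from -0.0094 to 0.023, CYC1 from -0.016 to 0.021, UQCRQ from -0.0013 to 0.058. For cytosol footprint enrichment the range was, in UQCRC1 from -0.093 to 0.46, UQCRC2 from -0.16 to 0.14, UQCRQ from -0.15 to 0.28. For OMM minus ER footprint enrichment the range was, in UQCRFS1 from -0.081 to 0.39. For LARP4 null minus wild-type OMM mRNA enrichment the range was, in UQCRFS1 from -0.39 to 0.0014. For AKAP1 null minus LARP4 null OMM mRNA enrichment the range was, in CYC1 from -0.21 to 0.10. For AKAP1 null against wild-type total input mRNA the range was, in UQCRC1 from -0.0042 to 0.071, UQCRC2 from -0.38 to 0.030, CYC1 from -0.13 to 0.048, UQCRH from -0.047 to 0.12, UQCR11 from -0.066 to 0.11. For LARP4 null against wild-type total input mRNA the range was, in CYC1 from -0.15 to 0.026, UQCRFS1 from -0.078 to 0.024, UQCRB from -0.17 to 0.069, UQCRH from -0.27 to 0.092, UQCR11 from -0.33 to 0.15. All-gene calls moved too. In AKAP1 null minus LARP4 null they were 0 higher and 0 lower without AKAP1 null replicate 2 and 1195 higher and 3512 lower without LARP4 null replicate 1, against 239 and 408.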
